A study of Ambystoma mexicanum with 6 samples.

Results

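The matrix metalloproteinases MMP13, MMP18 and MMP2 were followed in regenerating limbs of the axolotl, a salamander that regrows amputated limbs. Their members were taken by identifier, as every transcript of the assembled genes c1088042_g1 (best blastx hit MMP13_XENLA), c1077266_g2 (MMP18_XENLA) and c1065306_g2 (MMP2_CHICK), which gave 9 of the 1554055 transcripts in the deposited matrix. MMP13 and MMP18 had 4 transcripts each and MMP2 had 1. Of these 9, 6 were tested, having reached a value of 1 or more in 3 or more of the 6 libraries. The names are best protein hits that the study gave the same transcripts in its skin flap experiment, so the species part of a name is that of the hit. Sequences and genome positions of these transcripts were not used here.

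Matrix metalloproteinases are secreted or membrane-bound enzymes that depend on zinc, are made as inactive precursors and cut proteins of the extracellular matrix. Collagenases such as MMP13 open the collagen triple helix, MMP18 is a collagenase known from Xenopus, and the gelatinase MMP2 degrades unwound collagen and basement membrane collagen. In amputated salamander limbs such enzymes are known for the histolysis that frees cells of the stump before a blastema forms.

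RNA was sequenced from 3 limbs treated with DMSO, the solvent, and 3 limbs treated with iMDK, a compound given to block midkine, a heparin-binding growth factor, all collected at 11 days post-amputation (dpa). The labels place the start of both treatments directly after amputation, and the methods describe juvenile white axolotls kept in the solution, each library coming from a limb of another animal. No group was collected at another time or left without solvent, and iMDK was the only agent given against midkine in these libraries. The paper calls the direct target of iMDK unknown. It does not discount non-specific effects where iMDK-treated and midkine mutant limbs differed. The comparison asks how the RNA of the regenerating limb differed under the inhibitor.

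Values are TPM (a length-corrected share of the library's transcripts) multiplied by a scaling factor per library, called scaled TPM below. Library totals ran from 910461 to 1103880 scaled TPM, and read depth is unknown from such values. The number of transcripts above 0 ran from 126965 in iMDK 1 to 198094 in DMSO 2. On the log2 scale, libraries correlated with each other at 0.77 to 0.81 within a group and at 0.73 to 0.77 between groups, and no library was left out. Marker genes of keratinocytes, macrophages and osteoclasts, fibroblasts and skeletal mesenchyme, erythrocytes, endothelium and muscle were all above 0 in every library. In such a tissue, a change in the number of cells that make an enzyme cannot be told apart from a change of RNA per cell.

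MMP13 RNA was higher in iMDK-treated limbs, and the difference lay in transcripts that the DMSO-treated limbs hardly contained. Summed over its 4 transcripts, the assembled gene stood at 86.7, 70.8 and 72.6 scaled TPM in DMSO replicates 1 to 3 and at 146.0, 218.2 and 143.5 in iMDK replicates 1 to 3. Every iMDK-treated limb was above every DMSO-treated limb, and iMDK 2 was the highest. The group means were 76.7 ± 8.69 (SD, n = 3) and 169.2 ± 42.4 (SD, n = 3), a 2.21-fold difference.

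**Figure D1:**
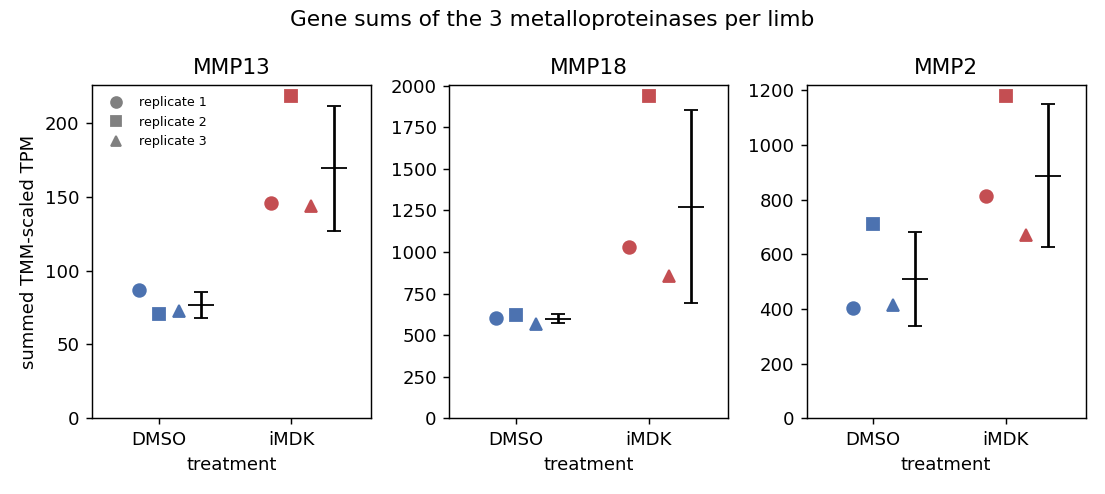
Summed scaled TPM of MMP13, MMP18 and MMP2 (vertical axes, linear, from 0) in each DMSO-treated and iMDK-treated limb. Symbols mark the replicate, and the horizontal and vertical bars beside them are the mean and SD of 3 limbs. For MMP13 and MMP18 the groups are apart, while for MMP2 the DMSO 2 limb (710.1) lies above the iMDK 3 limb (670.3).

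In limma, a linear model fitted here across all assembled genes on log2(value + 0.5), the MMP13 sum differed by 1.11 ± 0.21 (log2, SE; 95% interval 0.62 to 1.61), with an unadjusted p of 0.00117 and a Benjamini-Hochberg adjusted p of 0.175. It was therefore not called, a call being an adjusted p under 0.05 and a fold above 2. Among all 44342 gene sums tested, 0.0316% were called higher in iMDK and 8.38% were higher without overlap of the groups. Of the 3 enzymes, 0 were called on their sums and 2, MMP13 and MMP18, were higher without overlap. All 3 had an unadjusted p under 0.05, as had 10.7% of all gene sums.

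The most abundant MMP13 transcript of DMSO-treated limbs, c1088042_g1_i2, gave no sign of this difference. It was at 85.2, 70.3 and 72.4 scaled TPM in DMSO 1 to 3 and at 62.4, 93.7 and 72.3 in iMDK 1 to 3. The iMDK values lay on both sides of the DMSO values. The log2 difference was -0.01 with a 95% interval of -0.48 to 0.46 (limma, adjusted p = 0.983), so differences of either sign up to the ends of that interval remain possible.

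The transcript c1088042_g1_i3 was at 1.37, 0.413 and 0 scaled TPM in DMSO 1 to 3. In iMDK 1 to 3 it was at 35, 47.8 and 29.5. Its lowest iMDK value was thus more than an order of magnitude above its highest DMSO value. It was called higher in limma, by 5.29 ± 0.50 on the log2(value + 0.5) scale (SE, n = 3 per group, adjusted p = 0.0111). Without DMSO 2, iMDK 1, iMDK 2 or iMDK 3 its adjusted p rose to between 0.0633 and 0.0860, which ended the call, while the log2 difference stayed between 5.10 and 5.45.

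The transcript c1088042_g1_i4 showed the widest gap. DMSO 1 to 3 held 0.067, 0 and 0.193 scaled TPM of it, and iMDK 1 to 3 held 48.6, 76.8 and 41.7. It went from near the bottom of the scale to a level close to that of c1088042_g1_i2. It was called higher by 6.54 ± 0.31 on the same log2 scale (SE, n = 3 per group, limma adjusted p = 0.000843). Because 0.5 is added to each value, these log2 differences understate the change of a transcript that starts near 0, and a value listed at 0 may be a failed estimate.

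Both calls together made 2 of the 6 tested transcripts of the 3 enzymes, where 0.311% of all 51718 tested transcripts were called higher. Groups were apart, with iMDK higher, for 3 of the 6 (8.59% of all tested transcripts), these calls and MMP18 c1077266_g2_i1. c1088042_g1_i4 passed the filter through iMDK-treated limbs alone, and c1088042_g1_i3 would not have passed it without them. The members were also chosen with earlier results of these data known. These counts therefore cannot be weighed against the shares over all transcripts. The remaining MMP13 transcript, c1088042_g1_i1, was at 0.134 in DMSO 2 and listed at 0 in the other 5 libraries, and was not tested. Transcripts of 1 assembled gene share sequence, and the quantifier divides reads among them, so these 2 calls are not independent of each other and the split between transcripts is less certain than their sum.

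**Figure D2:**
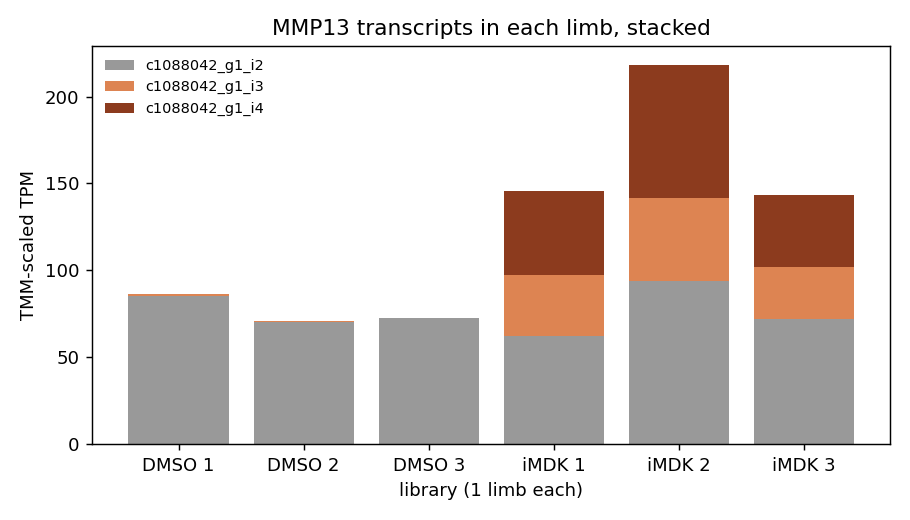
Scaled TPM of the MMP13 transcripts c1088042_g1_i2, c1088042_g1_i3 and c1088042_g1_i4, stacked for each limb (vertical axis, linear, from 0). The lower segment, c1088042_g1_i2, spans 62.4 to 93.7 over all 6 limbs, while the other segments are visible almost only in the 3 iMDK-treated limbs.

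The composition of MMP13 RNA differed accordingly. In DMSO 1 to 3, c1088042_g1_i2 made up 98.3, 99.2 and 99.7% of the MMP13 sum. In iMDK 1 to 3 it made up 42.7, 42.9 and 50.4%. The share of c1088042_g1_i3 was at most 1.58% in DMSO and 20.6 to 23.98% in iMDK, and that of c1088042_g1_i4 at most 0.266% in DMSO and 29.0 to 35.2% in iMDK. In each of these 3 shares the groups were apart, with an exact permutation p of 0.1 (2-sided), the smallest that 20 splits of 6 libraries allow, so that this permutation test cannot pass 0.05 with 3 limbs per group.

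Of the 92.5 scaled TPM by which the mean MMP13 sum was higher, 92.4 came from c1088042_g1_i3 and c1088042_g1_i4, or 99.9%. Within iMDK-treated limbs these transcripts kept a narrow ratio, c1088042_g1_i4 exceeding c1088042_g1_i3 by 0.47, 0.68 and 0.49 on the log2(value + 0.5) scale in iMDK 1 to 3. In DMSO-treated limbs, where both were near 0, the same ratio scattered from -1.72 to 0.47. The difference of that ratio between groups, 1.25, had an exact permutation p of 0.2 and was 0.74 without DMSO 1, 1.84 without DMSO 3 and 1.87 with a pseudocount of 0.1.

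Of the 3 assembled genes followed, MMP18 was the most abundant in 5 of 6 limbs, and its RNA was likewise higher in all iMDK-treated limbs. This order leaves out c1078738_g1, another assembled gene matched to MMP2, which is given below. The 4 MMP18 transcripts summed to 603.8, 621.3 and 567.7 scaled TPM in DMSO 1 to 3 and to 1028, 1936 and 852.3 in iMDK 1 to 3. The DMSO-treated limbs were close together, and the iMDK-treated limbs were spread widely, with iMDK 2 well above the others. The means were 597.6 ± 27.3 and 1272 ± 581 (SD, n = 3 each), a 2.13-fold difference, and 1.57-fold without iMDK 2. The log2 difference was 0.997 ± 0.33 (limma, SE; 95% interval 0.22 to 1.77; unadjusted p = 0.0191, adjusted p = 0.332), so MMP18 was not called.

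In contrast to MMP13, MMP18 RNA was made up of the same transcript in both groups. c1077266_g2_i1 held 99.7 to 99.8% of the sum in each of the 6 limbs, with a mean of 99.8% in DMSO and in iMDK (exact permutation p = 0.9). The transcript c1077266_g2_i4 was at 0.207, 1.27 and 0.717 scaled TPM in DMSO 1 to 3 and at 0.53, 2.90 and 1.04 in iMDK 1 to 3, with overlapping groups and a log2 difference of 0.61 ± 0.63 (limma, adjusted p = 0.819). The others, c1077266_g2_i2 and c1077266_g2_i3, were not tested, the former lying between 0.487 and 1.66 and the latter reaching 1.01 in iMDK 2 and at most 0.001 elsewhere.

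MMP2 RNA, as the assembled gene c1065306_g2, was higher on average in iMDK-treated limbs, but the groups overlapped. The other gene matched to MMP2, c1078738_g1, was lower on average (289.5 in DMSO and 260.0 in iMDK) and is given below. The single transcript c1065306_g2_i1 was at 404.4, 710.1 and 414.9 scaled TPM in DMSO 1 to 3 and at 813.7, 1178 and 670.3 in iMDK 1 to 3. DMSO 2 stood well above the other DMSO-treated limbs and above iMDK 3, and iMDK 2 was again the highest. The means were 509.8 ± 174 and 887.3 ± 262 (SD, n = 3 each), 1.74-fold apart. The log2 difference of the gene sum was 0.81 ± 0.32 (limma, SE; 95% interval 0.05 to 1.57; unadjusted p = 0.0394, adjusted p = 0.432), and without DMSO 2 it was 1.07 (adjusted p = 0.311).

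A library high in MMP2 was not always high in MMP13. DMSO 2 held the most MMP2 among DMSO-treated limbs, whereas its MMP13 was the lowest of the 3, narrowly (70.8, against 72.6 in DMSO 3). Its MMP18 was the highest of the 3 (621.3, against 603.8 in DMSO 1). The same limb held the highest summed level of fibroblast and skeletal mesenchyme markers of all 6, 2212 scaled TPM, against 1160 and 1524 in the other DMSO-treated limbs and 1814 to 1939 in iMDK-treated limbs. Among these markers the proteoglycan PGCA alone went the other way in DMSO-treated limbs. It was at 98.7 scaled TPM in DMSO 2, 274.3 in DMSO 1 and 313.1 in DMSO 3. The part of this marker level in the MMP2 values was not tested.

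In iMDK 2, all 3 enzymes were at their peak. This limb stood 1.51-fold (MMP13), 2.06-fold (MMP18) and 1.59-fold (MMP2) above the mean of iMDK 1 and iMDK 3. Without it, the iMDK means were 1.89-fold, 1.57-fold and 1.46-fold above the DMSO means in the same order. The direction thus did not rest on that library, whereas much of the size for MMP18 did.

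By rank among the 44342 gene sums tested, MMP18 was between places 132 and 192 from the top in DMSO-treated limbs and between 35 and 120 in iMDK-treated limbs. MMP2 was between places 108 and 298, then between 71 and 157. MMP13, the least abundant of the 3 in each limb, was between places 1514 and 1726 in DMSO and between 521 and 956 in iMDK. All 3 are therefore among the more abundant RNAs of the 11 dpa limb in both treatments. The order MMP18 over MMP2, taken as c1065306_g2 alone, was turned only in DMSO 2. In DMSO and iMDK the spread of MMP18 and MMP2 about their means overlapped.

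Added together, the 3 enzymes reached 1095, 1402 and 1055 scaled TPM in DMSO 1 to 3 and 1988, 3332 and 1666 in iMDK 1 to 3. The groups did not overlap. The means were 1184 ± 190 and 2329 ± 884 (SD, n = 3 each), 1.97-fold apart, with a log2 difference of 0.92 (exact permutation p = 0.1, the smallest possible).

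The proportions among the enzymes overlapped between treatments. MMP18 made up 55.1, 44.3 and 53.8% of the 3-enzyme sum in DMSO 1 to 3 and 51.7, 58.1 and 51.2% in iMDK 1 to 3. MMP2, as c1065306_g2 alone, made up 36.9, 50.6 and 39.3%, then 40.9, 35.4 and 40.2%. MMP13 made up 7.92, 5.05 and 6.88%, then 7.34, 6.55 and 8.61%. The mean shares shifted by 2.57, -3.46 and 0.89 percentage points for MMP18, MMP2 and MMP13, with exact permutation p-values of 0.6, 0.7 and 0.5.

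**Figure D3:**
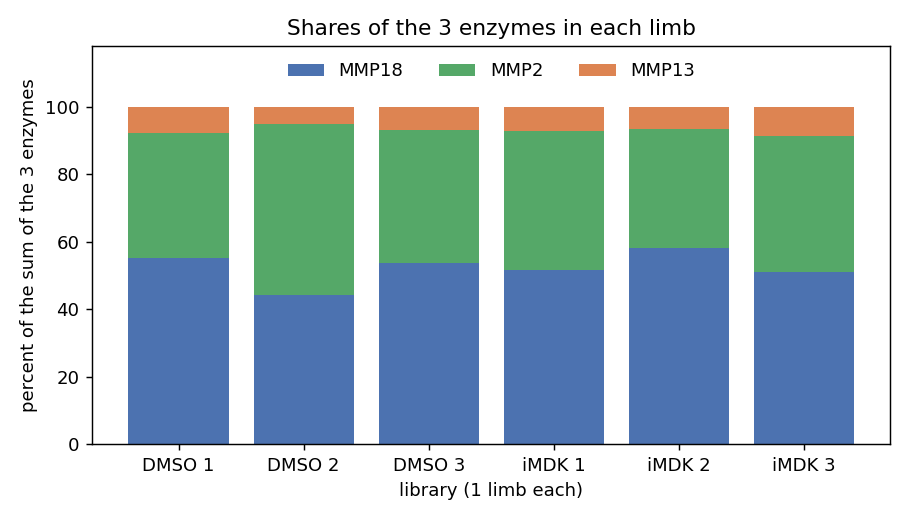
Share of MMP18, MMP2 and MMP13 in the summed scaled TPM of the 3 enzymes, in percent, stacked to 100 for each limb. MMP18 ranges from 44.3 to 58.1%, MMP2 from 35.4 to 50.6% and MMP13 from 5.05 to 8.61%, and the DMSO and iMDK ranges overlap for each enzyme.

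Whether the enzymes differed from each other in their response was tested on log2 ratios within each limb. The ratio of MMP13 to MMP18 differed between treatments by 0.12, that of MMP13 to MMP2 by 0.30 and that of MMP18 to MMP2 by 0.19 (exact permutation p = 0.7, 0.5 and 0.6). Each of the 3 differences was smaller than the SD of its ratio among DMSO-treated limbs. That of MMP13 to MMP2 exceeded the SD among iMDK-treated limbs (0.14), and was 0.54 without DMSO 1 and -0.01 without DMSO 2. With 3 limbs per group these p-values do not show that the enzymes responded alike. Between MMP13 transcripts, the ratio of c1088042_g1_i4 to c1088042_g1_i2 was higher by 6.56 and that of c1088042_g1_i3 to c1088042_g1_i2 by 5.31 on the log2(value + 0.5) scale (exact permutation p = 0.1 for each). These sizes depend on the pseudocount, being 8.32 and 6.46 with 0.1 and 5.67 and 4.67 with 1. Since c1088042_g1_i2 hardly differed, both ratios restate the calls of c1088042_g1_i4 and c1088042_g1_i3 and add no separate support. In all, 7 such ratios were tested, and 0.1 is the smallest p that any of them could reach.

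A 2nd assembled gene, c1078738_g1, also has MMP2 as its best hit (MMP2_HUMAN) and behaved differently. It was at 297.1, 341.9 and 229.6 scaled TPM in DMSO 1 to 3 and at 266.7, 302.3 and 211.1 in iMDK 1 to 3. The iMDK values lay within or below the DMSO range, and the log2 difference was -0.15 (limma, adjusted p = 0.850). The log2 ratio of c1065306_g2 to c1078738_g1 was 0.44, 1.05 and 0.85 in DMSO 1 to 3 and 1.61, 1.96 and 1.66 in iMDK 1 to 3, without overlap (difference 0.96, exact permutation p = 0.1). This ratio was chosen after its values had been seen. Whether both assembled genes share sequence was not examined. If they do, reads can be divided between them, so each of these levels is uncertain. The levels, ranks and shares given for MMP2 are those of c1065306_g2 alone. With c1078738_g1 added, MMP2 would stand above MMP18 in each limb but iMDK 2.

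Around the 3 enzymes, 12 assembled genes of other matrix proteases and their regulators were examined, of which 11 were tested. Of these, 9 were above 0 and 2 below, with a median log2 difference of 0.23, beside a median of -0.01 and 49.3% above 0 over all gene sums. This lean was not particular to proteases. Each other gene list examined below also had a median above 0, from 0.27 for cytokines and transcription factors of protease induction to 1.98 for erythrocyte genes. Listed genes needed a name from the study's skin flap lists, which the paper describes as differentially expressed transcripts. Most gene sums carry no such name, so all gene sums are not a like background for these lists. The median over named gene sums was not computed. In limma 0 of the 11 were called, where 0.0541% of all gene sums were called in either direction, and 3 had an unadjusted p under 0.05, MMP3, ADAM9 and HYAL1, which were also the 3 that were higher without overlap. Over all gene sums 10.7% had such a p and 8.38% were higher without overlap.

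MMP3, a stromelysin that cuts many matrix proteins and activates other metalloproteinase precursors, had the largest difference of this list. It was at 116.1, 30.6 and 98.0 scaled TPM in DMSO 1 to 3 and at 224.7, 242.8 and 356.7 in iMDK 1 to 3. Its peak was in iMDK 3 and not in iMDK 2, unlike that of MMP13, MMP18 and MMP2. The log2 difference was 1.92 ± 0.50 (limma, adjusted p = 0.226), and 1.33 without DMSO 2, the limb with the lowest value (adjusted p = 0.271).

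ADAM9, a membrane-bound protease that sheds surface proteins, was at 6.38, 8.63 and 5.92 scaled TPM in DMSO 1 to 3 and at 9.73, 11.3 and 10.4 in iMDK 1 to 3 (log2 difference 0.57, limma adjusted p = 0.394). The hyaluronidase HYAL1 was at 6.32, 4.45 and 4.35, then at 9.57, 6.97 and 7.58 (log2 difference 0.63, limma adjusted p = 0.413). Both were low beside the 3 metalloproteinases.

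MMP14, the membrane-bound metalloproteinase that activates the MMP2 precursor, was at 22.6, 21.3 and 14.7 scaled TPM in DMSO 1 to 3 and at 18.9, 27.3 and 19.2 in iMDK 1 to 3. The groups overlapped (log2 difference 0.16, limma adjusted p = 0.851). UPAR, the receptor that holds urokinase on the cell surface, had a log2 difference of 0.68 (adjusted p = 0.484).

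Cathepsin K, the collagen-degrading protease of osteoclasts, was assembled as 3 genes. The most abundant, c1083836_g2, ran from 1534 to 3254 scaled TPM in DMSO and from 1825 to 3811 in iMDK (log2 difference 0.11, limma adjusted p = 0.943; -0.0513 with quantile normalization, -0.226 without DMSO 3 and -0.165 without iMDK 2). c1078994_g2 ran from 197.4 to 626.8 in DMSO and from 378.2 to 833.0 in iMDK (log2 difference 0.69, adjusted p = 0.762; 0.18 without DMSO 3 and 1.06 without iMDK 3), and c1083836_g4 stayed under 1 and was not tested. The convertase PCSK7, the cathepsin inhibitor cystatin C (CYTC) and the enhancer of procollagen cleavage PCOC1 had log2 differences of 0.15, 0.23 and -0.13 (limma adjusted p of 0.876, 0.835 and 0.909).

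**Figure D4:**
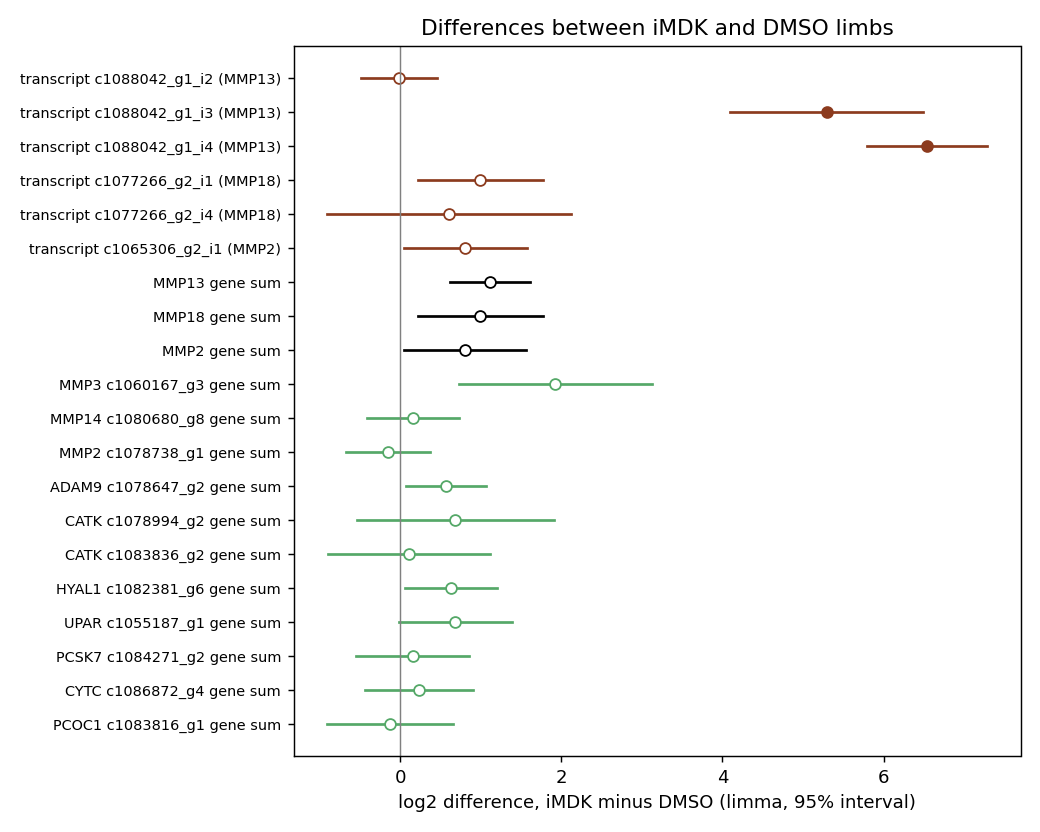
Log2 difference between iMDK-treated and DMSO-treated limbs (horizontal axis, circles) with its 95% interval from limma (lines), for the tested transcripts of the 3 enzymes (brown), their gene sums (black) and the other proteases and regulators (green). Filled circles mark the called transcripts c1088042_g1_i3 (5.29) and c1088042_g1_i4 (6.54), and open circles were not called.

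Genes of the matrix that these enzymes act on were measured in the same limbs. Of 26 assembled genes for collagens, laminins, glycoproteins, proteoglycans and enzymes of their assembly, 24 were tested, 20 of them above 0 and 4 below, with a median log2 difference of 0.35. In limma 0 were called and 0 had an unadjusted p under 0.05. Without overlap, 0 were higher and 1 was lower, LAMB2, a laminin chain of basement membranes, at 2.25, 2.57 and 1.28 scaled TPM in DMSO 1 to 3 and at 1.07, 1.25 and 1.20 in iMDK 1 to 3 (log2 difference -0.56, limma adjusted p = 0.704). Over all gene sums 0.0541% were called in either direction and 10.7% had an unadjusted p under 0.05. Of the same sums 8.38% were higher and 8.23% were lower without overlap.

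The chains of collagen I, the main substrate of collagenases, varied most among DMSO-treated limbs. CO1A1 was at 82.6, 304.0 and 139.6 scaled TPM in DMSO 1 to 3 and at 227.8, 197.1 and 221.4 in iMDK 1 to 3. CO1A2 was at 285.8, 903.4 and 504.9, then at 737.6, 684.8 and 693.1. For both chains DMSO 2 was the highest and DMSO 1 the lowest of all 6 limbs, with log2 differences of 0.50 and 0.47 (limma adjusted p = 0.814 and 0.806). These differences moved with single DMSO-treated limbs, being 0.06 for both chains without DMSO 1, and 0.998 for CO1A1 and 0.89 for CO1A2 without DMSO 2.

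The other substrates with the smallest p-values overlapped between groups. Lysyl oxidase (LYOX), which cross-links collagen, had a log2 difference of 0.50 (limma adjusted p = 0.591; 0.24 without iMDK 2). The matrix glycoprotein SPRC (osteonectin) had one of 0.34 (adjusted p = 0.680; 0.20 without DMSO 1), fibrillin 2 (FBN2, c1064348_g7) one of 0.68 (adjusted p = 0.724; 0.30 without DMSO 1 and 1.24 without DMSO 2) and the epidermal laminin chain LAMB3 one of 0.48 (adjusted p = 0.756; 0.15 without DMSO 1). COMP, a cartilage matrix protein, was at 12.3, 18.9 and 11.8 scaled TPM in DMSO 1 to 3 and at 6.997, 16.4 and 5.73 in iMDK 1 to 3 (log2 difference -0.65, adjusted p = 0.678).

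Metalloproteinase genes are widely known as targets of inflammatory cytokines and of the AP-1 and NF-kB transcription factors. Of 7 such genes, all tested, 6 were above 0 and 1 below, with a median log2 difference of 0.27, and in limma 0 were called and 1 had an unadjusted p under 0.05. That gene, the AP-1 subunit FOSL2, was at 10.1, 7.95 and 11.98 scaled TPM in DMSO 1 to 3 and at 13.4, 18.7 and 18.996 in iMDK 1 to 3. The groups did not overlap (log2 difference 0.74 ± 0.23, limma adjusted p = 0.306). Over all gene sums 0.0541% were called in either direction, 10.7% had an unadjusted p under 0.05 and 8.38% were higher without overlap.

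IL18, an inflammatory cytokine, was at 16.3, 11.8 and 23.9 scaled TPM in DMSO 1 to 3 and at 12.7, 9.05 and 12.4 in iMDK 1 to 3 (log2 difference -0.55, limma adjusted p = 0.590). NFKB2, a subunit of NF-kB, had a log2 difference of 0.27 (adjusted p = 0.775). Both overlapped between the groups.

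Several cell types of the limb can make these enzymes. Some cell type markers were higher without overlap in iMDK-treated limbs, but only erythrocyte globins were called. Of 15 macrophage and osteoclast genes, 3 of them the cathepsin K genes above, 13 were tested, 12 were above 0 and 0 were called in limma. Their summed level was 5085 to 6085 scaled TPM in DMSO and 6258 to 7977 in iMDK, without overlap, and 4 of the 13 were higher without overlap, beside 8.38% of all gene sums. These 4 were GRN (c1067279_g4 and c1067279_g6), CD63 and NPC2. The groups overlapped for MPEG1, EMR1, C1QA, SN, CD5L, OCSTP and cathepsin K. By group mean, cathepsin K c1083836_g2 was the largest part of the sum (2556 in DMSO and 2738 in iMDK). It was not the largest part of the difference. Between group means, CD63 (1071 in DMSO and 1639 in iMDK) and MPEG1 c1090171_g3 (856.1 and 1382) differed most. With either of them left out, the summed levels of the groups would overlap, so the gap of the sum rests on single genes. MPEG1 c1090171_g3 overlapped widely, from 296.9 to 1909 in DMSO and from 449.8 to 2207 in iMDK. The part of these cells in the MMP13, MMP18 and MMP2 values was not tested.

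Of 14 keratinocyte genes, 11 were above 0 and 0 were called, and their summed level was 9046 to 13427 scaled TPM in DMSO and 12776 to 14782 in iMDK. Of these, 3 were higher without overlap (8.38% of all gene sums), TGM1, a transglutaminase of the cornified envelope (log2 difference 2.55, limma adjusted p = 0.132), and the keratins K1C17 and K2C8 (1.06 and 0.72, adjusted p = 0.531 and 0.337). Of 11 fibroblast and skeletal mesenchyme genes, 9 were above 0 and 0 were called. Of 5 erythrocyte genes, 4 were above 0 and 2, the globins HBB1 and HBB2, were called higher (limma adjusted p = 0.0389 and 0.0492), beside 0.0316% of all gene sums. HBB2, at 1.11, 0.631 and 0.523 scaled TPM in DMSO 1 to 3, would not have passed the filter without iMDK-treated limbs. HBA2 (log2 difference -0.12) and HEM0 (0.95) overlapped between the groups. The summed level of the erythrocyte genes was 7.52 to 15.3 in DMSO and 43.4 to 81.6 in iMDK. The 2 endothelial genes summed to 14.4 to 21.04 in DMSO and to 20.99 to 33.01 in iMDK, and the muscle gene MYH3 was at 1.05 to 2.59 in DMSO and 2.23 to 5.04 in iMDK. Among iMDK-treated limbs, iMDK 3 held the lowest level of each of the 3 enzymes, the lowest macrophage and osteoclast sum and the lowest fibroblast and skeletal mesenchyme sum, and the highest keratinocyte and erythrocyte sums. Its MMP13 (143.5) was close to that of iMDK 1 (146.0). In iMDK 2, where each enzyme peaked, the macrophage and osteoclast sum was 7618, below 7977 in iMDK 1. The fibroblast and skeletal mesenchyme sum of iMDK 2 was 1927, below 1939 in iMDK 1. The part of these cell types in the enzymes' values was not tested.

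Profiles over the 6 limbs were compared by the root mean square distance between centred log2(sum + 0.5) values, among 1254 tested gene sums that have a name, as a description that rests on 6 shared libraries. MMP13 and MMP18 were 0.20 apart, MMP18 and MMP2 0.29, and MMP13 and MMP2 0.37, where the median distance of MMP13 to the named genes was 0.69. The nearest named genes to MMP13 were PXDN (c1076922_g10), a peroxidase of the matrix that cross-links basement membrane collagen, at 0.20, the membrane-bound carboxypeptidase CBPM at 0.20 and VTC1A at 0.26.

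For MMP18 they were PXDN at 0.28, FRRS1 at 0.29 and VTC1A at 0.30. PXDN was at 9.28, 7.67 and 10.5 scaled TPM in DMSO 1 to 3 and at 15.3, 20.5 and 14.8 in iMDK 1 to 3, highest in iMDK 2 as were the enzymes. For MMP2 the nearest were MYH3, an embryonic myosin heavy chain, at 0.21, ZN142 at 0.22 and MYCPP at 0.22. In each of these 3, as in MMP2, DMSO 2 was the highest DMSO-treated limb and iMDK 2 the highest of all.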

How the data were processed

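Poly(A) RNA of 3 DMSO-treated and 3 iMDK-treated regenerating limbs had been sequenced from Nextera XT libraries. The authors trimmed reads with Trimmomatic, quantified them with kallisto against an assembled axolotl transcriptome and tested with DESeq2, with no version stated. The deposited signal is TPM per transcript, multiplied by a TMM factor per library. Such values are not counts and keep no read depth, so no counting interval was computed and no count test was run.

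Groups and replicate numbers came from the labels. Here log2(value + 0.5) was fitted with limma 3.58.1 (mean-variance trend, 2-sided) in R 4.3.3 over 51718 transcripts, or 44342 gene sums (all transcripts of an assembled gene), with at least 1 in at least 3 libraries, and p-values were Benjamini-Hochberg adjusted over all of them. The thresholds for a call followed the study (adjusted p under 0.05, fold over 2). Sums over enzymes, shares and ratios had exact permutation tests over 20 splits (smallest p 0.1). Data were read with data.table (version 1.17.8) and pandas 2.3.3, and figures were drawn with matplotlib 3.10.9. The limma procedure was tested on simulated data.

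The members and gene lists were chosen with earlier results of these data known. The rule for names took every member, every gene of the protease list, the 6 substrates and 3 inducers with the smallest p, the collagen I chains and the 3 nearest profiles of each enzyme. LAMB3 and other matrix genes stand in more than 1 list. Names are blastx entries that the study pairs with 1675 transcripts, and 0 identifiers matched a RefSeq gene. Alternatives changed the pseudocount, filter, scaling, variance model and replicate block, and left out each library in turn.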

Additional observations from a re-analysis of the deposited data

How the results depend on the processing

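The MMP13 transcript c1088042_g1_i4 was called under all 17 alternatives (limma adjusted p from 4.11e-07 to 0.0364). The number of called transcripts of the 3 enzymes fell from 2 to 1 with a pseudocount of 0.1, where c1088042_g1_i3 had an adjusted p of 0.0752 (log2 6.44), and ranged from 1 to 2 without single libraries. Of the gene sums of the enzymes, 1 was called with no filter, MMP13 (log2 1.11, adjusted p = 0.0114), and MMP3 was then called too (log2 1.92, adjusted p = 0.000292), and the cause was not tested. In that setting MMP18 had a limma adjusted p of 0.00409. In that setting alone, MMP18 missed the call only because its log2 difference of 0.997 lay just under a fold of 2. Its limma adjusted p was 0.332 in the main fit and 0.245 or more in every other alternative. Over the alternatives the adjusted p ran from 0.0114 to 0.390 for MMP13, from 0.00409 to 0.597 for MMP18 and from 0.0556 to 0.711 for MMP2, and the log2 difference of each stayed above 0.

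Over all features, 280 called transcripts became 427 with no filter, 168 with a filter of at least 5, 1303 without the trend and 78 to 138 without single libraries. The 24 called gene sums became 9 with a pseudocount of 0.1, 438 with no filter, 38 with a filter of at least 5, 14 without TMM scaling, 820 without the trend and 0 to 3 without single libraries. The causes were not tested.

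Same-numbered libraries showed little shared deviation (correlations 0.06, 0.04 and 0.01). These were not set against differently numbered libraries, so they cannot exclude that the numbers pair limbs. With the replicate number as a block, 30 transcripts, 0 gene sums and 1 transcript of the enzymes were called, c1088042_g1_i3 having an adjusted p of 0.0653 and the 3-enzyme sum an exact permutation p of 0.25, the smallest that block allows.

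Some directions turned. The difference of c1088042_g1_i2 was 0.00997 with median-of-ratios scaling, 0.0223 with array weights and -0.17 to 0.12 without single libraries, and that of cathepsin K c1083836_g2 was -0.0513 with quantile normalization. Without single libraries, MMP14 ranged from -0.0280 to 0.27, cathepsin K c1083836_g2 from -0.23 to 0.37, PCSK7 from -0.0924 to 0.42 and PCOC1 from -0.39 to 0.18. In the same way the share of the 3-enzyme sum ranged from -0.82 to 4.60 percentage points for MMP18 and from -6.14 to 0.71 for MMP2, and that of c1077266_g2_i1 in the MMP18 sum from -0.034 to 0.026 percentage points. The log2 ratio of MMP13 to MMP18 ranged from -0.0205 to 0.27, of MMP13 to MMP2 from -0.0134 to 0.54 and of MMP18 to MMP2 from -0.0481 to 0.34. Shares do not depend on a scaling per library, and the choices of filter, trend, robust estimation, array weights and quantile normalization give no value for the 3-enzyme sum. Read depth is unknown, so that values near 0 carry no stated counting error.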
